A study of Mus musculus with 8 samples.

Results

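The immunity-related GTPases (IRG) are a family of interferon-inducible GTP-binding proteins, and 6 of their mouse genes are described here: Irgm1, Irgm2, Igtp, Iigp1, Tgtp1 and Tgtp2. They were chosen by family and gene name with earlier results of these data known, and their Ensembl IDs were found for 6 of 6 among the 55414 gene rows of the count table. RNA was sequenced from Paneth cells, the secretory cells at the crypt base of the small intestine that release antimicrobial peptides. All mice were WT, and the study's methods name the strain as C57BL/6J. They received an injection of PBS, the control, or of TNF, an inflammatory cytokine, and after 3 h the Paneth cells were purified on a cell sorter. Each group had 4 libraries, named here by the replicate number of their labels, and no genetic change separated the groups. The labels give neither the dose nor the age of the animals.

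IRG proteins are part of the cell-autonomous defence of mice against bacteria and protozoa that live in vacuoles. Effector members, called GKS proteins after a lysine in their nucleotide-binding loop, load onto the membrane of the vacuole and disrupt it. Regulatory members, called GMS proteins because they carry a methionine in place of that lysine, sit on the membranes of the cell's own organelles and hold the effectors inactive there. Irgm1, Irgm2 and Igtp (also called Irgm3) encode the GMS proteins, whereas Iigp1 (Irga6), Tgtp1 and Tgtp2 (Irgb6 proteins) encode GKS effectors. Irgm1 is known for a role in autophagy, and mice that lack it have abnormal Paneth cells. The genes are classically induced by interferon gamma through Janus kinase signalling and the transcription factor IRF1.

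The stretch of coding sequence that separates the GMS from the GKS class is shown because the family is ordered by it. It was read from the canonical transcripts of GENCODE release M39, is written 5′ to 3′ on the coding strand, and has the deciding codon in capitals (ATG for methionine, AAG for lysine). That codon is number 73 in Irgm1, 77 in Irgm2, 97 in Igtp and 69 in both Tgtp genes, counted from the start codon. Ifi47, a further IRG gene with a GKS protein (codon 87), is given beside them.
Irgm1, Irgm2 and Igtp: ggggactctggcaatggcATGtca
Tgtp1 and Tgtp2: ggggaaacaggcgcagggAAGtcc
Ifi47: gggcagtctgggactggcAAGtcc
The 3 GMS genes shared all 24 bases of this stretch, although their whole coding sequences were only 63.3% to 67.6% identical. The coding sequences of Tgtp1 and Tgtp2, each of 1248 bases, were 99.7% identical, with 1244 bases in common. GMS and Tgtp genes shared between 52.6% and 54.3%.

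Of the 6 genes, 5 lie on chromosome 11 of GRCm39 and had a promoter in the RefSeq set used (250 bases before to 50 after the start). Irgm1 (chr11:48752795-48763164), Tgtp1 (chr11:48876154-48884999) and Tgtp2 (chr11:48948021-48955033) are on the minus strand of the same region. Igtp (chr11:58089840-58098417) and Irgm2 (chr11:58090444-58113615) are on the plus strand further along, where the annotated span of Irgm2 covers most of Igtp and 162 exonic bases belong to both. The 60 bases below are shown because the members changed together and these promoters hold the motifs through which interferon signalling is known to act. They are written 5′ to 3′ on the strand of each gene, with matches to the interferon-stimulated response element (ISRE, searched as GAAA, any 2 bases and GAAA again) and to the gamma-activated site (GAS, searched as TTC, any 3 bases and GAA) in capitals.
Irgm1, chr11:48762254-48762313, minus strand: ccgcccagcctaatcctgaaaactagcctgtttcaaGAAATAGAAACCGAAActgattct
Irgm2, chr11:58105703-58105762, plus strand: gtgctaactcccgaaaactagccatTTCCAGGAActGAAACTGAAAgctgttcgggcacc
Igtp, chr11:58090312-58090371, plus strand: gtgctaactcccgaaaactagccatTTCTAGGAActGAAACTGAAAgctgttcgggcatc
Tgtp1, chr11:48883127-48883186, minus strand: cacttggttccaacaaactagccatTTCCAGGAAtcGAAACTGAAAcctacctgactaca
Tgtp2, chr11:48955086-48955145, minus strand: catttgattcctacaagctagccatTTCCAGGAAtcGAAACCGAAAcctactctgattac
All 5 promoters held an ISRE, which 3.44% of the 32851 RefSeq promoters had on either strand. Irgm1 held 2 overlapping copies, and its promoter had no GAS. In the other 4 promoters a GAS stood 2 bases before the ISRE, in the same spacing, and 8.30% of all promoters held a GAS. None of the 5 promoters had a match to the NF-kB motif searched (GGG, any 3 bases and TTCC), which 5.56% of all promoters held, and the promoter of Ifi47 held none of the 3 motifs. A match describes letters only, and where these letters are lacking nothing follows about the factor.

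The 6 IRG transcripts were all called higher in TNF libraries (edgeR quasi-likelihood test, Benjamini-Hochberg adjusted p under 0.05 over the 13368 genes tested). In the same test 43.0% of all genes were called in either direction and 23.4% were called higher. The median log2 fold change was 2.35 over the 6 genes and 0.03 over all genes tested. The 4 TNF values lay above the 4 PBS values for 5 of the 6 genes, the exception being Tgtp2, and for 22.4% of all genes tested. Among all tested genes ordered by log2 fold change, Tgtp1 stood at 119, Irgm2 at 178, Igtp at 291, Irgm1 at 341, Iigp1 at 489 and Tgtp2 at 502.

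Values are given as normalized CPM, the usual CPM scaling of counts with each library size multiplied by its TMM factor, a factor that sets the bulk of the genes equal between libraries. The libraries held 23824717 to 32576077 counts. TNF replicate 4 stood apart: it had the lowest TMM factor, 0.448 against 0.995 to 1.36 in the others, a score of 63.9 on the second principal component against -29.1 to 4.22, and 54.2% of its counts on 8 Paneth cell marker genes against 42.2% to 48.2%. Scaling by library size alone moved the median log2 fold change of all genes by -0.40, and under it Iigp1 and Tgtp2 lost their call while no member changed direction. With both TNF replicate 4 and PBS replicate 4 left out, a choice made after the data were seen, all 6 members were again called higher. In bulk RNA fewer cells of a type and less RNA per cell cannot be told apart. The labels number the libraries as replicates, and the p-values measure the spread between them.

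**Figure D1:**
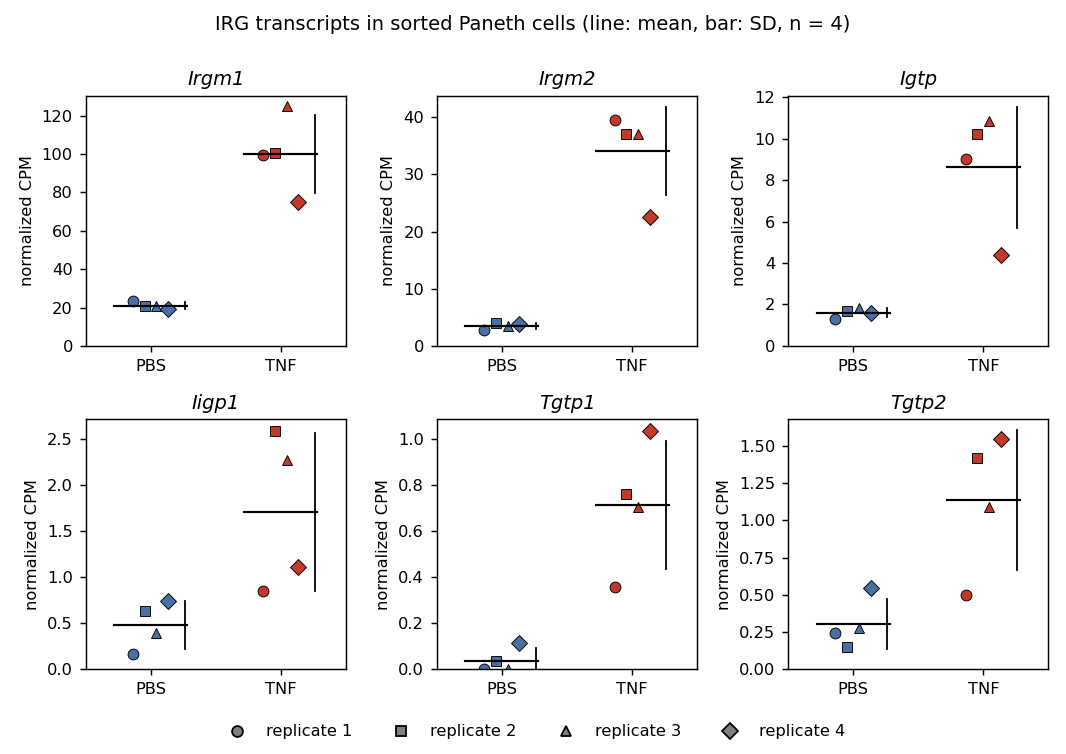
Normalized CPM (y axis, linear from 0) of the 6 IRG genes in the 4 PBS libraries (blue) and the 4 TNF libraries (red), with 1 symbol per replicate number, the group mean as a line and the SD as a bar (n = 4). TNF replicate 4 is the lowest TNF library for Irgm1, Irgm2 and Igtp and the highest for Tgtp1 and Tgtp2.

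Among the members described here, Irgm1 was the most abundant transcript in either condition. In PBS libraries it measured 23.4, 20.8, 20.8 and 19.1 normalized CPM in replicates 1 to 4, and in TNF libraries 99.6, 100.6, 124.9 and 75.1. The groups were far apart, and TNF replicate 4 was the lowest of the TNF libraries. The mean rose from 21.03 ± 1.81 to 100.01 ± 20.3 normalized CPM (SD, n = 4 each), a log2 fold change of 2.25 with an SE of 0.16 (edgeR adjusted p = 2.15e-06). Its raw counts were between 528 and 875 in PBS and between 874 and 3559 in TNF libraries. Ifi47, an IRG gene outside these members, was higher than Irgm1 in TNF replicate 4, at 81.8 against 75.1 normalized CPM.

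Irgm2, the second GMS gene, rose most among the members with more than 1 normalized CPM in PBS. Its PBS libraries held 2.87, 3.98, 3.43 and 3.82 normalized CPM and its TNF libraries 39.5, 36.99, 37.02 and 22.6. The first 3 TNF libraries were close to each other and TNF replicate 4 was clearly lower, but still above every PBS library. The log2 fold change was 3.28 with an SE of 0.20 (edgeR adjusted p = 7.33e-07), which corresponds to 9.69-fold. Without TNF replicate 4 it was 3.44.

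Igtp, the third GMS gene, was found at 1.31, 1.67, 1.85 and 1.58 normalized CPM in PBS and at 9.01, 10.2, 10.9 and 4.38 in TNF libraries. All TNF libraries were above all PBS libraries, and TNF replicate 4 was again the lowest of its group. On plain CPM, without the TMM factor, that library had 1.96 and PBS replicates 3 and 4 had 1.97 and 2.15, so that the groups overlapped on this scale. The log2 fold change was 2.45 with an SE of 0.27 (edgeR adjusted p = 3.82e-05). Reads from the 162 exonic bases shared with Irgm2 could have been counted for either gene, and 90.6% of the 75-base stretches of the canonical Igtp transcript and 90.7% of those of Irgm2 occur in no other gene.

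The 3 GKS members were rare. Iigp1, at chromosome 18 positions 60506680 to 60525706 on the plus strand, had 0.161, 0.632, 0.394 and 0.747 normalized CPM in PBS libraries and 0.852, 2.60, 2.28 and 1.12 in TNF libraries. The lowest TNF library was only slightly above the highest PBS library, and on plain CPM the groups overlapped. Its log2 fold change was 1.83 with an SE of 0.49 (edgeR adjusted p = 0.0107), resting on 6 to 33 counts per PBS library and 13 to 75 per TNF library. With library size alone the adjusted p was 0.0681, and over all alternatives it ran from 0.00092 to this value. Every 75-base stretch of its canonical transcript is unique to it.

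Tgtp1 and Tgtp2 are near-identical copies, and of the 75-base stretches of their canonical transcripts 10.9% and 14.8% are unique, so that the division of reads between them is uncertain. Tgtp1 had 0, 1, 0 and 5 counts in PBS and 10, 22, 20 and 12 in TNF replicates 1 to 4. In normalized CPM the TNF libraries were at 0.355, 0.761, 0.702 and 1.03, above the highest PBS value of 0.113. The fitted log2 fold change of 3.84, with an SE of 0.69 (edgeR adjusted p = 0.00112), rests on 6 PBS counts in all. It became 5.41 without PBS replicate 4, which held 5 of these counts.

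Tgtp2 had 9, 4, 7 and 24 counts in PBS and 14, 41, 31 and 18 in TNF libraries. In normalized CPM these were 0.241, 0.149, 0.276 and 0.543 for PBS and 0.497, 1.42, 1.09 and 1.55 for TNF. The groups overlapped, since TNF replicate 1 was lower than PBS replicate 4, while the other 3 TNF libraries were above all PBS libraries. The log2 fold change was 1.80 with an SE of 0.46 (edgeR adjusted p = 0.00874), and with library size alone the adjusted p was 0.0675, in a range from 0.000761 to this value over the alternatives.

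The sum of the Tgtp pair does not depend on how reads were divided between the copies. It held 0.241, 0.186, 0.276 and 0.656 normalized CPM in PBS and 0.852, 2.18, 1.79 and 2.58 in TNF libraries, without overlap. As 1 feature it had a log2 fold change of 2.33 with an SE of 0.46 (edgeR adjusted p = 0.00192), and it was called under all 17 alternatives, with values between 1.83 and 2.89.

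**Figure D2:**
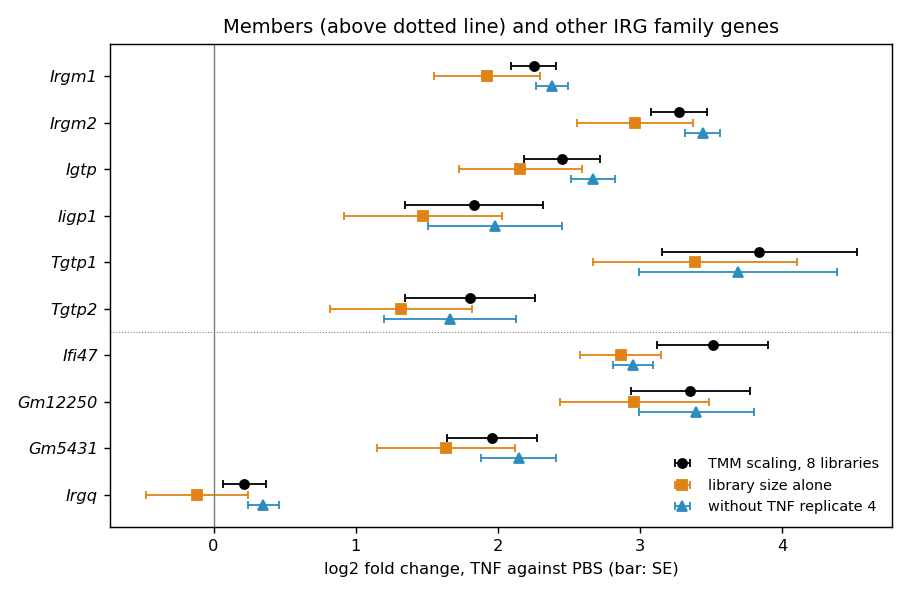
Log2 fold change of TNF against PBS (x axis, bars are SE) for the 6 IRG members, above the dotted line, and the 4 other IRG family genes that were tested, with TMM scaling (black), with library size alone (orange) and without TNF replicate 4 (blue). All members lie right of 0 in the 3 fits, and Irgq, with 0.22 under TMM scaling, moves to -0.12 with library size alone.

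Per length, the 3 GMS members stood above the 3 GKS members in both conditions. On the scale of normalized CPM per kb of merged exons, the mean levels in PBS were 3.31 ± 0.284 for Irgm1, 0.942 ± 0.132 for Irgm2 and 0.352 ± 0.0493 for Igtp (SD, n = 4). They were followed by Tgtp2 at 0.103 ± 0.0576, Iigp1 at 0.0759 ± 0.0409 and Tgtp1 at 0.0115 ± 0.0163. Neighbours in this order did not overlap down to Tgtp2, whereas Tgtp2 with Iigp1 and Iigp1 with Tgtp1 did. In TNF libraries the order was the same, with 15.7 ± 3.20 for Irgm1, 9.09 ± 2.06 for Irgm2, 1.89 ± 0.643 for Igtp, 0.387 ± 0.159 for Tgtp2, 0.269 ± 0.134 for Iigp1 and 0.218 ± 0.085 for Tgtp1. The last 3 overlapped again. Ifi47, a GKS gene outside the 6, was at 1.11 to 1.37 normalized CPM per kb in PBS and 7.97 to 28.7 in TNF libraries. In PBS it was above Irgm2 and Igtp. In TNF libraries it was above Igtp, whose highest value was 2.39, and overlapped Irgm2, at 6.04 to 10.6. Its 28.7 in TNF replicate 4 was also above the 11.8 of Irgm1 in that library. If reads that match both Tgtp copies were left uncounted, the levels of Tgtp1 and Tgtp2 and their places in this order are too low.

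The length chosen moved the lower part of this order. Per kb of the canonical transcript, Iigp1 came before Tgtp2 in both groups, at 0.159 ± 0.0857 against 0.108 ± 0.0602 in PBS and 0.563 ± 0.282 against 0.405 ± 0.167 in TNF libraries. The first 3 places were the same and did not overlap, but their distances changed, with Irgm1 at 10.1 ± 0.866 in PBS and 47.9 ± 9.75 in TNF libraries, and in PBS with Irgm2 at 1.01 ± 0.142 and Igtp at 0.703 ± 0.0982.

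**Figure D3:**
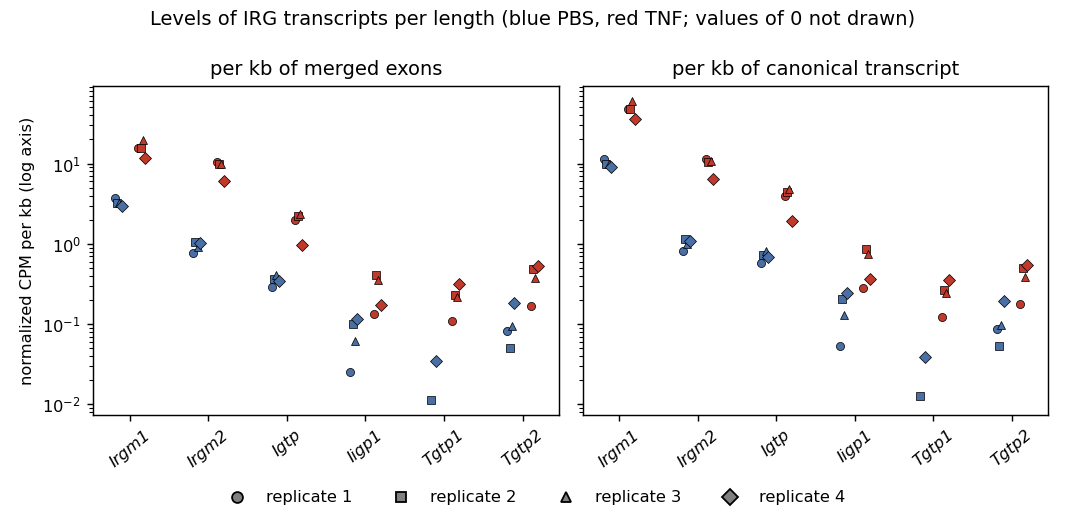
Level of each IRG transcript in normalized CPM per kb (y axis, log scale) in PBS (blue) and TNF (red) libraries, by merged exon length (left) and canonical transcript length (right), with 1 symbol per replicate number. Irgm1, Irgm2 and Igtp keep their order in both panels, and the 2 PBS libraries with 0 counts of Tgtp1 are not drawn.

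All 6 transcripts together made up 28.03, 27.3, 26.8 and 25.9 normalized CPM in PBS libraries and 149.8, 152.5, 176.8 and 105.7 in TNF libraries. The PBS libraries differed little, with a mean of 27.0 ± 0.902, and the TNF libraries were more spread, with a mean of 146.2 ± 29.6 (SD, n = 4 each). The share of Irgm1 in this sum was 77.8% ± 4.22 in PBS and 68.5% ± 2.67 in TNF libraries. The 3 GMS genes made up 96.9% ± 1.69 of it in PBS and 97.5% ± 1.05 in TNF libraries. The 3 GKS genes held the remaining 3.09% ± 1.69 and 2.52% ± 1.05, shares that are too low if reads common to the Tgtp copies were left uncounted. The GKS gene Ifi47, at 3.54 ± 0.312 normalized CPM in PBS and 40.7 ± 27.6 in TNF libraries, is not part of this sum.

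To compare the responses of the members with each other, the log2 ratio of each of the 15 gene pairs was formed within each library, so that scaling between libraries did not enter. The ratio of Irgm1 to Irgm2 was between 2.32 and 3.03 in PBS and between 1.33 and 1.75 in TNF libraries, a difference of -1.01. For Irgm2 over Igtp it was between 0.88 and 1.27 in PBS and between 1.77 and 2.36 in TNF libraries, a difference of 0.90. For both pairs the ranges of the groups were separate, with the share of Irgm2 higher in 4 of 4 TNF libraries.

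Of the 5 ratios with Tgtp1, 3 overlapped between the groups and 2 were separate. Iigp1 over Tgtp1 differed by -2.37 and Tgtp1 over Tgtp2 by 2.34, both resting on the few PBS counts of Tgtp1. With 5 counts added in place of 0.5 these differences were -0.61 and 0.70, and with 0.1 added they were -3.60 and 3.55. For all 4 pairs named, with 0.5 added, the two-sided exact permutation test gave p = 0.0286, the smallest value that 70 assignments of the libraries allow, and the exact permutation p adjusted over the 15 pairs was 0.107. After adjustment no pair therefore passed, while 4 had an unadjusted p under 0.05. Irgm1 over Igtp differed by -0.11 (exact permutation p = 0.486), with PBS libraries from 3.48 to 4.14 and TNF libraries from 3.30 to 4.09, so that a difference was not resolved. Leaving out 1 library at a time, the Irgm1 to Irgm2 difference remained between -1.10 and -0.86 and the Irgm2 to Igtp difference between 0.79 and 0.99.

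**Figure D4:**
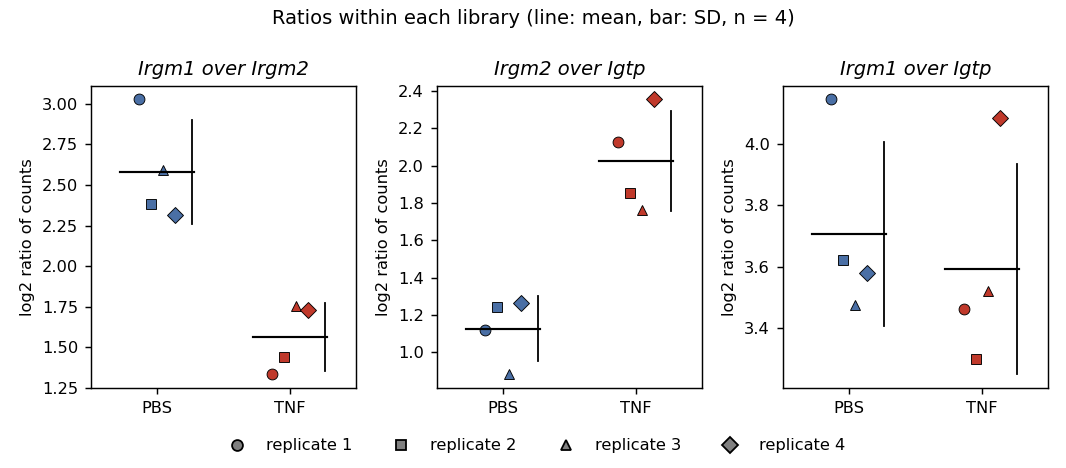
Log2 ratio of counts (y axis) of 3 pairs of GMS genes within each PBS (blue) and TNF (red) library, with the mean as a line and the SD as a bar (n = 4). The ranges are separate for Irgm1 over Irgm2 and for Irgm2 over Igtp, and overlap for Irgm1 over Igtp.

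Outside the 6 genes, 11 further IRG family genes were listed. Of these 4 had enough counts to be tested and 3 were called higher, beside 23.4% of all genes tested. Without the filter on low counts 4 of 10 were called, with a median log2 fold change of 1.83 over the 10. Ifi47 (Irgd), a GKS gene beside Tgtp2 on chromosome 11, had 3.64, 3.16, 3.90 and 3.46 normalized CPM in PBS and 26.4, 32.1, 22.7 and 81.8 in TNF libraries. TNF replicate 4 was far above the rest of its group on this scale. On plain CPM it had 36.6 against 24.1 to 32.0, so that its distance rested on its TMM factor. The log2 fold change was 3.51 with an SE of 0.39 (edgeR adjusted p = 4.51e-05), and 2.95 without TNF replicate 4.

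Gm12250 (Irgb10), whose protein is known to act on bacterial membranes, rose by 3.35 on the log2 scale (edgeR adjusted p = 0.000103), from 0.409 ± 0.278 to 4.28 ± 0.453 normalized CPM (SD, n = 4). Its row is annotated as a transcribed processed pseudogene, and every 75-base stretch is shared with a second gene of the same symbol in the GENCODE annotation. Without PBS replicate 4 its log2 fold change was 3.90, and without both replicates 4 it was 3.98. Gm5431 rose by 1.96 (edgeR adjusted p = 0.00061), from 0.472 ± 0.119 to 1.80 ± 0.578 normalized CPM.

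Irgq, a divergent family member, was at 13.6 ± 0.246 normalized CPM in PBS and 15.7 ± 3.33 in TNF libraries, with a log2 fold change of 0.22 (edgeR adjusted p = 0.273) that turned to -0.12 with library size alone. Without TNF replicate 4 it was 0.35 and was called. Of the untested genes, Gm12185 had 4 to 11 counts per PBS library and 7 to 35 per TNF library, Gm4841 and Irgc had at most 6 in any library, and 9930111J21Rik2, Gm4951 and F830016B08Rik at most 2. Gene 9930111J21Rik1 had 0 counts in all 8 libraries, where 0 counts allow up to 3, or between 0.0679 and 0.258 normalized CPM.

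Genes of interferon sensing were mostly higher too. Of 16 receptors, Janus kinases, STATs, IRFs and their inhibitor Socs1, all tested, 14 were called higher, beside 23.4% of all genes. Of the rest, 1 (Tyk2) was called lower and 1 was not called. The median log2 fold change of the 16 was 1.41 beside 0.03 over all genes. The receptor chains for interferon gamma, Ifngr1 and Ifngr2, rose by 1.00 and 1.60 on the log2 scale, and the kinases that they activate, Jak1 and Jak2, by 0.82 and 1.86 (the largest edgeR adjusted p was 0.0003). With library size alone 8 of the 16 were called, all higher, beside 757 of all 13368 genes called higher. Ifngr1, Jak1 and Irf9 were not among the 8.

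Transcripts of factors known to bind ISRE motifs were also higher, and binding to the promoters shown above was not measured. Irf1 had 27.6, 24.8, 28.5 and 31.9 normalized CPM in PBS libraries and 131.3, 154.9, 164.6 and 123.6 in TNF libraries, a log2 fold change of 2.35 with an SE of 0.14 (edgeR adjusted p = 6.68e-07). These groups were widely separated, with TNF replicate 4 the lowest of the TNF libraries. Stat2 and Irf9, parts of an ISRE-binding complex, rose by 1.73 and 1.02. Socs1, the feedback inhibitor of Janus kinases, rose by 4.40 from 0.133 ± 0.113 to 3.15 ± 0.364 normalized CPM (edgeR adjusted p = 1.24e-05), and by 5.22 without PBS replicate 4.

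The interferon genes looked up were not detected. Ifng, Ifnb1, Ifnl2, Ifnl3, Ifne and Ifnk, 6 of the 6 ligand genes listed, had 0 counts in each library, which allows up to 0.258 normalized CPM in the least favourable one. RNA of other cells of the tissue was not measured.

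The guanylate-binding proteins are a further family of interferon-inducible GTPases that act together with IRG proteins on vacuoles. Of 11 listed genes 5 passed the filter on low counts and 5 were called higher, beside 23.4% of all genes tested. Without the filter 8 of 10 were called, with a median log2 fold change of 2.80 over the 10. Gbp2 went from 0.161, 0.595, 0.591 and 1.95 normalized CPM in PBS to 138.8, 155.1, 156.7 and 162.5 in TNF libraries (log2 fold change 7.46, edgeR adjusted p = 2.12e-06). All TNF libraries were close together there, including TNF replicate 4. Gbp5 rose by 6.98 and Gbp7 by 4.08. Without PBS replicate 4, which held most PBS counts of Gbp2 and Gbp5, these were 8.44 for Gbp2, 7.84 for Gbp5 and 4.46 for Gbp7. Gbp2 and Gbp5 had larger fitted log2 fold changes than any IRG member.

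The ATG8 conjugation machinery is known to deliver IRG and guanylate-binding proteins to vacuoles. Of its 17 listed genes, with ubiquitin ligases and adaptors of the vacuole included, 8 were called higher, beside 23.4% of all genes, and 1 lower, with a median log2 fold change of 0.29 beside 0.03 over all genes. With library size alone the median was -0.10, and 2 were called higher and 1 lower. Sqstm1, the adaptor p62, rose by 2.51 and Rnf213, a large ubiquitin ligase, by 1.95, whereas the adaptor Calcoco1 fell by 1.43 (the largest edgeR adjusted p was 0.000181). All 3 kept their call and direction with library size alone.

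Other interferon-inducible genes rose as well. Of 16 type I interferon-stimulated genes 11 were tested and 10 called higher, beside 23.4% of all genes. Without the filter on low counts 11 of 16 were called higher (median 1.55 over all 16). With library size alone it was 6 of 11, beside 757 of 13368 genes. Among the 10 were Rtp4 with 3.49, Isg15, a ubiquitin-like modifier, with 2.89 and Usp18, which removes it, with 2.92 on the log2 scale. Of 13 targets of interferon gamma and Irf1, all tested, 12 were called higher (median 1.94), and 9 with library size alone. Among the 12 were the peptide transporter genes Tap1 and Tap2 with 2.52 and 2.67 and their partner Tapbp with 1.90.

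PBS replicate 4 had the highest PBS values of Iigp1, Tgtp1 and Tgtp2, and some other interferon-inducible genes, chosen after their values were seen, were high in the same library. The summed lists were divided. The type I genes were lowest in PBS replicate 4, at 15.5 normalized CPM against 17.4 to 20.02 in the other PBS libraries. So were the interferon gamma and Irf1 targets, at 252.9 against 292.0 to 326.8, to which Wars1 alone gave 170.7 to 236.2. The guanylate-binding proteins were highest in PBS replicate 4, at 5.11 against 1.80 to 2.34. So were the genes of interferon sensing, at 356.3 against 305.1 to 331.8. Cxcl9, a chemokine induced by interferon gamma, had 35 counts there against 1 to 3 in the other PBS libraries, and 13 to 43 in TNF libraries. For Ido1, which degrades tryptophan, the library had 105 counts against 7 to 9, and for Cxcl10 it had 37 against 1 to 2. Irgm1 did not follow this pattern, since PBS replicate 4 was its lowest PBS library, nor was the library the highest for Irgm2 or Igtp. Without PBS replicate 4, the log2 fold changes were 4.21 for Cxcl9, 4.43 for Ido1, 2.16 for Iigp1 and 2.26 for Tgtp2.

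**Figure D5:**
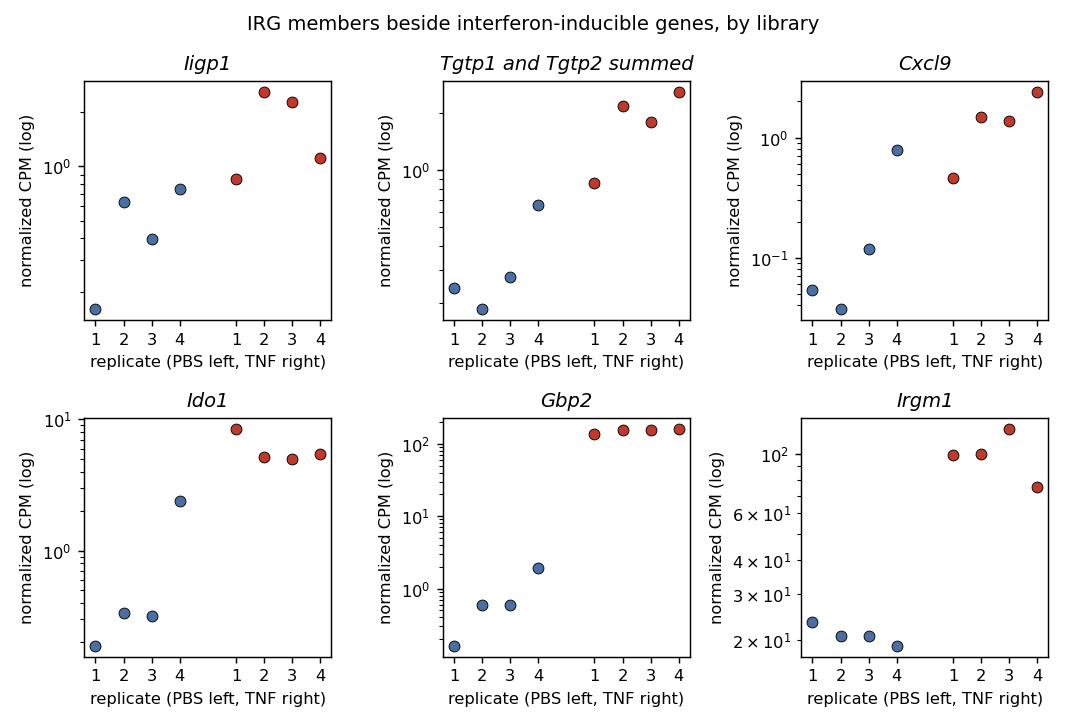
Normalized CPM (y axes, log scale) of Iigp1, the sum of Tgtp1 and Tgtp2, Irgm1 and the interferon-inducible genes Cxcl9, Ido1 and Gbp2 in each library (x axis, PBS replicates in blue, TNF replicates in red). PBS replicate 4 is the highest PBS library in all panels except that of Irgm1.

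Markers were read to check the labelled cell type. The Paneth cell genes Lyz1 and Defa24 had at least 3616878 counts in every library, and of 8 Paneth markers 2 were called higher, a share near the 23.4% of all genes, and 0 with library size alone. Of the 12 immune markers, 7, among them Cd3e, Cd3g, Cd8a, Cd79a, Adgre1 and Nkg7, were at 0 in all libraries, and Ptprc had 0 to 10 counts. The summed immune level was 9.89 to 14.6 normalized CPM in PBS and 13.98 to 71.4 in TNF libraries, with 1 marker, Cd52, called higher. The highest sum belonged to TNF replicate 4, where Lyz2 alone had 64.3 normalized CPM.

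Of the 10 stroma and endothelium markers 3 were at 0 throughout, and the sum was 0.223 to 0.452 normalized CPM in PBS and 1.23 to 1.83 in TNF libraries, with Vim called higher. Col1a1 had 0 counts in PBS and 1 to 6 in TNF libraries, and Col1a2 had 0 in all. Enterocyte markers summed to 99.995 to 136.0 normalized CPM in PBS and 52.9 to 113.1 in TNF libraries, where TNF replicate 4 had the 113.1 and the others 52.9 to 61.6. Of the 8, 1 was called higher and 2 lower, beside 43.0% of all genes called in either direction. With library size alone 0 were higher and 3 lower, beside 3182 of 13368 genes called. Without TNF replicate 4 Fabp2 and Sis were also called lower, with log2 fold changes of -0.89 and -0.92. Apoa1 was not called, and Apoa4 fell by 3.93 on the log2 scale. Goblet and stem cell markers summed to 4321 to 6689 normalized CPM in PBS and 6530 to 8454 in TNF libraries, with 1 of 8 higher (Muc2) and 5 lower (Clca1, Fcgbp, Lgr5, Ascl2 and Smoc2), while Tff3 was not called. With library size alone 0 were called higher and 4 lower. The part of these cells in the IRG values was not tested.

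The genes most like each member across the 8 libraries were found by the root mean square difference of their centred log2 values among 8202 other protein-coding genes, a measure that includes the difference between the groups. Irgm1 was nearest to Hif1a, the hypoxia-inducible factor subunit, at 0.086, and to Wars1, a tryptophanyl-tRNA synthetase, at 0.092. Irgm2 was nearest to Rtp4 at 0.20 and to Itga3 at 0.21, and Igtp to Shb at 0.20 and Gpr155 at 0.22. The rarer transcripts had no neighbour as close: the best were Kazn for Iigp1 at 0.45, followed by Tead4 at 0.50, Fas and Sh3pxd2b for Tgtp1 at 0.35 and 0.37, and Svil and Apc for Tgtp2 at 0.40 and 0.41. With a prior count of 0.5 in place of 2, the nearest genes of Irgm1 and Igtp were the same. Those of Tgtp1 and Tgtp2 were others, the first for Irgm2 became Junb and the second for Iigp1 became Klf6.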

How the data were processed

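The authors deposited 1 table of raw counts per Ensembl gene ID, with 1 column per library and no normalization. Per the labels, RNA came from Aurum Total RNA Mini columns and the library kit was TruSeq Stranded mRNA. The submitters' processing notes name FastQC 0.12, STAR 2.7.10a, DESeq2 and the mm39 build. How reads were counted, by what annotation, with or without strand, and what became of reads matching several genes remains not given in the sources used here.

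Gene symbols, positions and lengths came from GENCODE release M39 (GRCm39), in which 54749 of 55414 IDs had a symbol. The 665 others stayed in library sizes and tests. Promoters came from RefSeq, for which the table held 5 of the 6 genes, and their windows were placed on GRCm39 by exact match. Protein sequences were not used here, so the nucleotide-binding loop and the identities were read from coding sequences.

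TNF was compared with PBS with edgeR 4.0.16 (quasi-likelihood F test, R 4.3.3), using TMM factors, filterByExpr and no covariate, and with Benjamini-Hochberg adjustment over 13368 genes. SE were derived from F. Gene pairs were compared by exact permutation of within-library log2 ratios of counts plus 0.5. The procedures were tested on simulated data. The lowest chi-square per degree of freedom between libraries of a group was 8.77, so no library was a duplicate of another in its group. Total counts of 23824717 to 32576077 per library set the precision, and limits for 0 counts cover counting error only.

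Named genes were all members, all further IRG genes in the table, 9 genes of interferon sensing, the 3 smallest p of each other pathway list, the first 2 markers of each marker list, and for each member the 2 nearest protein-coding genes with a mean of at least 5 normalized CPM. Some items under this rule are not reported here. Other genes named were chosen after their values were seen. The members and lists were chosen with earlier results of these data known. Alternatives were other scalings (RLE, library size alone, TMM without Defa genes), other filters (none, at least 1 CPM in 4 libraries), DESeq2 1.42.0, limma-voom 3.58.1, a replicate block, an adjusted p under 0.01 and leaving out each library. DESeq2 and limma served only as alternatives.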

Additional observations from a re-analysis of the deposited data

Results flagged for a closer look

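Among the TNF libraries, replicate 4 was far from the other 3 for 3 of the IRG genes tested. Irgm2 had 22.6 normalized CPM there, against 36.99 to 39.5 in the others. Ifi47 had 81.8, against 22.7 to 32.1. Gm5431 had 0.945, against 2.00 to 2.16. The gap to the nearest library, divided by the range of the group, passed Dixon's 95% critical value for 4 samples in these 3 of 24 groups examined, and chance passes about 1 in 20. The library was low for Irgm2 and Gm5431 and high for Ifi47, and it is the one with the TMM factor of 0.448. On plain CPM, without that factor, Irgm2 had 10.1 there against 36.8 to 43.7, whereas Ifi47 had 36.6 against 24.1 to 32.0 and did not stand apart.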

How the results depend on the processing

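Irgm1, Irgm2, Igtp, Ifi47 and Gm12250 kept their direction and call in 18 of 18 alternatives, Tgtp1 and Gm5431 in 17 of 17 that tested them. Iigp1 was not called with library size alone (1.47, adjusted p = 0.0681) nor at an adjusted p under 0.01, and Tgtp2 not with library size alone (1.32, adjusted p = 0.0675). Over the alternatives, adjusted p values ranged from 0.00092 to 0.0681 for Iigp1 and from 0.000761 to 0.0675 for Tgtp2. Irgq reversed to -0.118 with library size alone. With at least 1 CPM in 4 libraries 3 members were called, since fewer genes were tested. Library size alone gave 8 called genes of interferon sensing, 3 of the ATG8 list and 6 type I interferon-stimulated genes, and the 1 CPM filter gave 6 of the last. Without a filter 8 guanylate-binding proteins were called. Leaving out each library gave 3 to 5 called genes among the other IRG family genes (5 without TNF replicate 4, with Irgq and Gm12185 added), and 5 without both replicates 4, an alternative chosen after seeing the data. Over all genes, library size alone gave 3182 calls against 5747, with 23.8% higher against 54.3%. The fold of Tgtp1 moved by 2.96 times without PBS replicate 4 and by 2.75 times without both replicates 4 (log2 5.41 and 5.30), and that of Ifi47 by 1.57 times with library size alone (2.86) and by 1.51 times without both replicates 4 (2.92). The 15 pairs of members gave 0 passes in the main test and in each alternative, which says nothing of stability: the smallest p of 0.0286, and a larger one in the sign-flip test with the replicate block, leaves little room to pass after adjustment. No pairing by replicate number was seen: deviations of same-numbered libraries correlated between -0.14 and 0.07, with 0 of 4 pairs over 0.1. The labels do not say what the numbers mark, and 4 pairs cannot exclude a pairing. With a replicate block 5087 genes were called in place of 5747, and no member lost its call. GC content was not corrected for. Depth limits Iigp1, Tgtp1 and Tgtp2, which had at most 75 counts in any library.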
